A study of Homo sapiens with 6 samples.

Results

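The genes described here are CEMIP and 6 genes of hyaluronan turnover, CEMIP2, CD44, HAS2, HAS3, HYAL2 and HYAL3, in A549 cells, an established human lung adenocarcinoma line. They are 7 of the 18833 genes named on the array, and were taken as every probe whose symbol in the platform annotation is one of these names, which gave 15 probes. Cells had received siRNA to Snai1, siRNA to ncRNA-a7, which is a long noncoding RNA, or control siRNA, and each of these 3 groups has 2 arrays, 6 in all. All groups are of this 1 line, grown in DMEM with fetal calf serum, and no further allele or agent is given in the labels. Neither the siRNA sequences nor the time after transfection are given in the sources used here. Total RNA was labelled with biotin and hybridised to a single-colour bead array, so each value below is the brightness of a probe. Because the genes were chosen with the values of these same arrays in view, their differences are given as descriptions, with standard errors and without p-values.

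Hyaluronan is a long unbranched sugar polymer of the extracellular matrix. Hyaluronan synthases at the plasma membrane, among them HAS2 and HAS3, make it from UDP-glucuronic acid and UDP-N-acetylglucosamine and extrude it from the cell. Its breakdown starts outside or at the surface of the cell, where CEMIP, CEMIP2 and the GPI-anchored hyaluronidase HYAL2 act, and ends in lysosomes. CD44 is its main surface receptor, is made in several spliced forms, and is linked to the actin cytoskeleton through ezrin, radixin and moesin.

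The mean signal per array lay between 715 and 914 and the median between 147.5 and 154.1, and precision is limited by how few arrays there are. After background correction and quantile normalization, log2 values of arrays of the same group correlated at 0.991 to 0.993 across probes. Those of different groups correlated at 0.987 to 0.989. Nothing in the labels says that the 2 arrays of a group came from separate cultures, so the spread between them may be technical. The probe of SNAI1 read 127 and 127 with Snai1 siRNA, against 143 and 144 with control siRNA. The probe of TRERNA1, the name under which ncRNA-a7 was looked up from general knowledge, read 130 and 132 with ncRNA-a7 siRNA, against 118 and 118 with control siRNA. Both probes were dimmer than the median probe, and a fall of either target can be neither shown nor refuted with them. Of the markers of an epithelial lung cancer line, 8 of 9 were brighter than the median probe, with AKR1C1 the dimmest, as were 3 of 5 fibroblast markers (COL1A1, DCN and LUM), 2 of 4 leukocyte markers (CD14 and ITGAM) and 3 of 5 endothelial markers (PECAM1, KDR and ESAM). The brightest of these on any array were LUM at 535, CD14 at 494 and ESAM at 413, all with Snai1 siRNA. COL1A2, COL3A1, PTPRC, CD3E, CDH5 and VWF were dimmer than the median probe.

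The promoters of CEMIP and HAS3 are shown because both genes had higher signals with either siRNA, and that of HYAL2 because its signals stayed close to control and its window holds the letters of the E-box known to be bound by SNAI1. The windows are the 250 bases before the start used by RefSeq in GRCh38.p14, given 5′ to 3′ on the strand of the gene. Capitals mark each CANNTG, the general E-box, and each TATAAA. They cover chr15:80779120-80779369 on the plus strand for CEMIP, chr16:69107290-69107539 on the plus strand for HAS3, where the start lies inside the annotated span of the gene, and chr3:50322746-50322995 on the minus strand for HYAL2.
CEMIP: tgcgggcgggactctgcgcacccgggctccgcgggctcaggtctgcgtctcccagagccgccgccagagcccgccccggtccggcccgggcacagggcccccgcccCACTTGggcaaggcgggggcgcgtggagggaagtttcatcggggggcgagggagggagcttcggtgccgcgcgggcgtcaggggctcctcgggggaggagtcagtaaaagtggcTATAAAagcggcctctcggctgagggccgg
HAS3: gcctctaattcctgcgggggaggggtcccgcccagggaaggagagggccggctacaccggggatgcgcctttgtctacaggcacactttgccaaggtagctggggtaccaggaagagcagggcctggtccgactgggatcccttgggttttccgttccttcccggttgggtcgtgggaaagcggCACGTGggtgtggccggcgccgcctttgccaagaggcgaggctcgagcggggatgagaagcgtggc
HYAL2: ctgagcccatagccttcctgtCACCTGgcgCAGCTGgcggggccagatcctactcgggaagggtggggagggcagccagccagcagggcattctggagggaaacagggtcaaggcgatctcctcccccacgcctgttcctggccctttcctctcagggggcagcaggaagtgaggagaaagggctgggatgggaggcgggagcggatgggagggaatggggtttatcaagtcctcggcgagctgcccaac

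The CEMIP window held 1 match to the general E-box, spelled CACTTG, which began 144 bases before the start, and a TATAAA that began 30 bases before it. The HAS3 window held CACGTG, beginning 66 bases before the start. The SNAI1-type E-box CAGGTG, read on both strands and itself a form of CANNTG, occurred in neither. It occurred in the HYAL2 window as CACCTG, beginning 229 bases before the start, and in 1 of the windows of HYAL3. HYAL3, whose windows are not shown, was lower with Snai1 siRNA (log2 change -0.52), while HYAL2 stayed close to control (0.03). Windows were available for 6 of the 7 genes, 7 windows in all, and 2 of them held CAGGTG, 5 held CANNTG and 1 held TATAAA on either strand. Of 35116 promoters in the same table, 17.5% held CAGGTG, 61.8% CANNTG and 10.7% TATAAA in windows of the same length. These matches are letters in a window and not measured binding, and their bearing on the signals was not tested.

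CEMIP, a secreted and membrane-associated protein needed for hyaluronan breakdown in fibroblasts, had 1 probe, and its signal was higher with either siRNA than with control. It read 1818 and 1357 with Snai1 siRNA and 2886 and 1944 with ncRNA-a7 siRNA, against 508 and 556 with control siRNA. All 4 arrays of the siRNA groups lay above both control arrays. In a bulk culture, a change in the number of cells that carry a transcript and a change in its level per cell cannot be told apart.

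After background correction, quantile normalization and log2, CEMIP was 3.40-fold higher with Snai1 siRNA than with control (log2 change 1.76 ± 0.16 SE, n = 2 per group, 95% interval 1.42 to 2.11). With ncRNA-a7 siRNA it was 5.03-fold higher (log2 change 2.33 ± 0.16 SE, n = 2 per group, 95% interval 1.99 to 2.67). Ratios of the mean raw signals were 2.98 and 4.54, and ratios of the signals as scaled by the authors were 3.19 and 4.71. Both comparisons share the control arrays and are given side by side for that reason only. Between both siRNA groups the ratio was smaller, with CEMIP 1.48 times as bright on the ncRNA-a7 siRNA arrays as on the Snai1 siRNA arrays (0.57 ± 0.16 SE on the log2 scale). The higher of the ncRNA-a7 siRNA arrays carried much of that difference, which was 0.30 when ncRNA-a7 siRNA replicate 1 was left out and 0.84 when replicate 2 was.

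**Figure D1:**
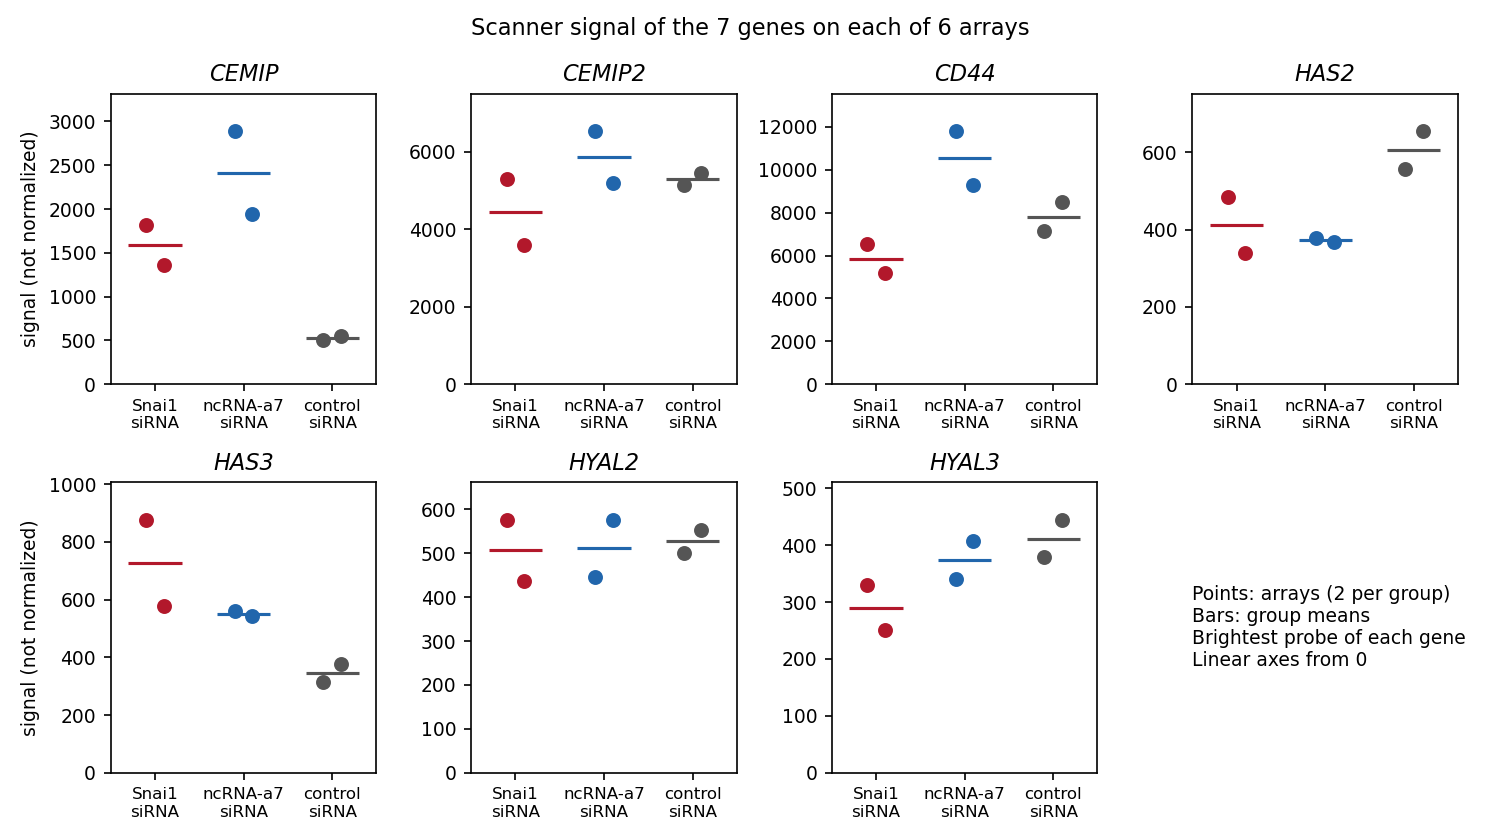
Scanner signal, not normalized, on the vertical axis (linear, from 0) for the brightest probe of each of the 7 genes, with a point for each array and a bar for the mean of the 2 arrays of a group. CEMIP lies between 1357 and 2886 on the siRNA arrays, above 508 and 556 on the control arrays, while HAS2 lies below its control arrays with both siRNAs.

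The synthases moved in opposite directions. HAS3, which is known to make shorter hyaluronan chains than HAS2 does, read 876 and 579 with Snai1 siRNA and 559 and 543 with ncRNA-a7 siRNA, against 315 and 377 with control siRNA. Every siRNA array was above both control arrays, and the arrays of both siRNA groups did not overlap each other. The fold over control was 2.42 with Snai1 siRNA (log2 change 1.27 ± 0.12 SE, n = 2 per group) and 1.74 with ncRNA-a7 siRNA (log2 change 0.80 ± 0.12 SE, n = 2 per group). HAS3 on the ncRNA-a7 siRNA arrays was therefore below the Snai1 siRNA arrays (-0.47 ± 0.12 SE on the log2 scale), the reverse of the order of CEMIP.

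HAS2, the synthase of long hyaluronan chains, read 484 and 340 with Snai1 siRNA and 377 and 369 with ncRNA-a7 siRNA on its brightest probe, against 555 and 654 with control siRNA. No siRNA array reached either control array. The signal was 1.45-fold lower with Snai1 siRNA (log2 change -0.53 ± 0.12 SE, n = 2 per group) and, for ncRNA-a7 siRNA, 1.66-fold lower (-0.74 ± 0.12 SE, n = 2 per group). Between the siRNAs the raw signals overlapped and the normalized values did not, with a log2 difference of -0.20 and a 95% interval of -0.46 to 0.05.

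The other probes of both synthases were close to the median of the arrays and did not all move with the brightest one. Of the 3 further HAS2 probes, whose signals ran from 128 to 188 over the 6 arrays, 1 read 168 and 170 with Snai1 siRNA and 140 and 144 with ncRNA-a7 siRNA, against 172 and 188 with control siRNA. It differed by -0.06 with Snai1 siRNA and -0.47 with ncRNA-a7 siRNA on the log2 scale. The other two HAS2 probes differed by 0.16 each with Snai1 siRNA and by -0.06 and 0.18 with ncRNA-a7 siRNA. The second HAS3 probe, at 140 to 161, differed by 0.20 and 0.04. The account of each synthase therefore rests on 1 probe.

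**Figure D2:**
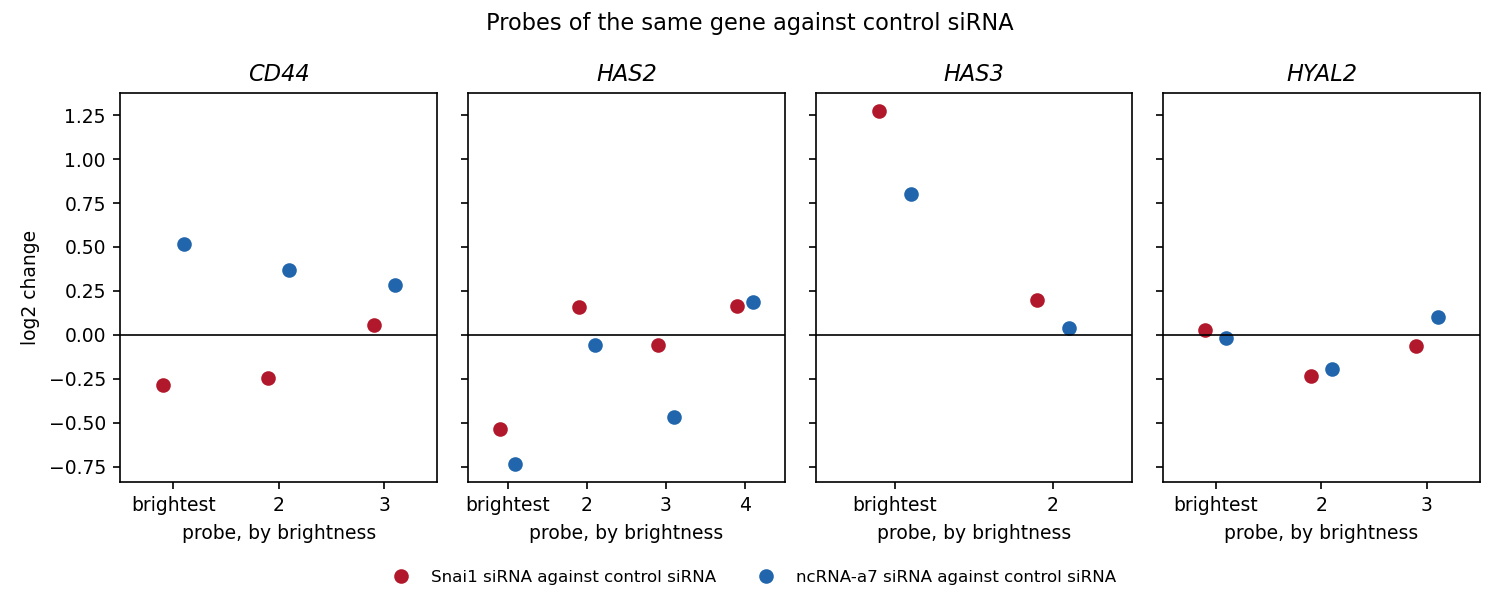
Log2 change over control siRNA on the vertical axis for every probe of the 4 genes with several probes, ordered from the brightest to the dimmest along the horizontal axis. The CD44 probes lie above 0 with ncRNA-a7 siRNA (0.52, 0.37 and 0.29), whereas the dim probes of HAS2 and HAS3 lie far nearer 0 than the brightest one does, apart from 1 HAS2 probe at -0.47 with ncRNA-a7 siRNA.

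CD44 differed between the siRNAs rather than moving one way with both. Its brightest probe read 6534 and 5164 with Snai1 siRNA and 11784 and 9268 with ncRNA-a7 siRNA, against 7130 and 8476 with control siRNA. The arrays of the 3 groups did not overlap, with ncRNA-a7 siRNA highest, control between and Snai1 siRNA lowest. The log2 change over control was -0.29 ± 0.12 SE with Snai1 siRNA and 0.52 ± 0.12 SE with ncRNA-a7 siRNA (n = 2 per group), and the ncRNA-a7 siRNA arrays exceeded the Snai1 siRNA arrays 1.75-fold (0.80 ± 0.12 SE on the log2 scale).

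CD44 has 3 probes, annotated to transcripts NM_001001391, NM_001001392 and NM_000610, and all 3 passed the filter on dim probes. The probe annotated to NM_001001392 read 1165 and 790 with Snai1 siRNA and 1380 and 1565 with ncRNA-a7 siRNA, against 1012 and 1431 with control siRNA. Its raw signals overlapped between each siRNA group and control but not between both siRNA groups, its normalized values overlapped in none of these, and its log2 differences were -0.24, 0.37 and, between the siRNAs, 0.61. The probe annotated to NM_000610 read 295 and 230 with Snai1 siRNA and 290 and 317 with ncRNA-a7 siRNA, against 270 and 254 with control siRNA, with log2 differences of 0.06, 0.29 and 0.23. The direction with ncRNA-a7 siRNA was therefore shared by the 3 probes, and that with Snai1 siRNA by 2 of them. Where on the transcripts the probes lie is not given in the files, so these values do not separate spliced forms.

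CEMIP2, a transmembrane relative of CEMIP also known as TMEM2, stayed close to control. It read 5292 and 3601 with Snai1 siRNA and 6524 and 5193 with ncRNA-a7 siRNA, against 5146 and 5453 with control siRNA, and the raw signals overlapped in every comparison, whereas the normalized values overlapped in none. The log2 change was -0.15 ± 0.13 SE with Snai1 siRNA (95% interval -0.42 to 0.13) and 0.23 ± 0.13 SE with ncRNA-a7 siRNA (95% interval -0.04 to 0.51). Neither interval reaches the change of CEMIP in the same comparison. Between the siRNAs the log2 difference was 0.38 ± 0.13 SE.

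The hyaluronidases were lower or level. HYAL2 read 576 and 438 with Snai1 siRNA and 446 and 576 with ncRNA-a7 siRNA on its brightest probe, against 502 and 553 with control siRNA. The groups overlapped throughout, with log2 changes over control of 0.03 ± 0.14 SE and -0.02 ± 0.14 SE and 95% intervals of -0.29 to 0.34 and -0.33 to 0.30. The 2 dimmer HYAL2 probes, at 118 to 211, differed from control by -0.23 to 0.10.

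HYAL3, a hyaluronidase family member with little enzyme activity of its own reported, read 330 and 251 with Snai1 siRNA and 341 and 407 with ncRNA-a7 siRNA, against 379 and 444 with control siRNA. Both Snai1 siRNA arrays lay below both control arrays, whereas the ncRNA-a7 siRNA arrays overlapped them. The signal was 1.43-fold lower with Snai1 siRNA (log2 change -0.52 ± 0.13 SE, n = 2 per group), and the log2 change was -0.12 ± 0.13 SE with ncRNA-a7 siRNA. The ncRNA-a7 siRNA arrays exceeded the Snai1 siRNA arrays 1.32-fold.

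**Figure D3:**
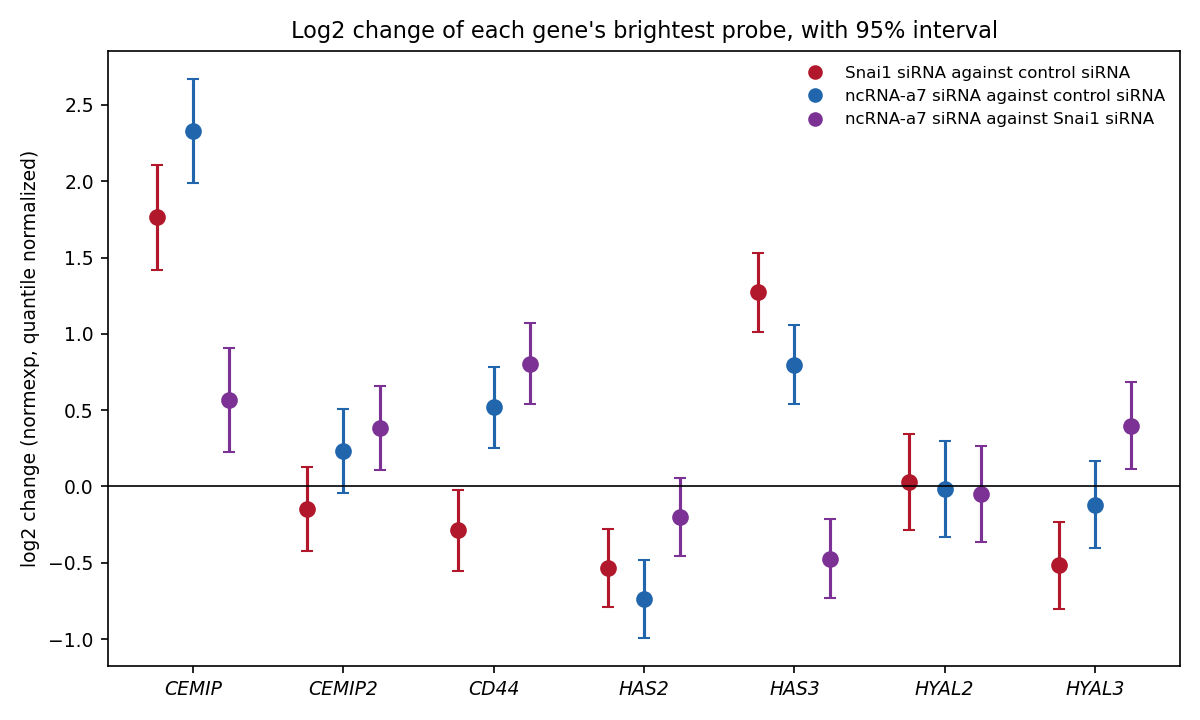
Log2 change of the brightest probe of each gene on the vertical axis, with 95% intervals from the limma fit, for 3 comparisons of 2 arrays against 2. CEMIP (1.76 and 2.33) and HAS3 (1.27 and 0.80) lie above 0 against control with both siRNAs, HAS2 (-0.53 and -0.74) lies below 0 with both, and CD44 lies on opposite sides (-0.29 and 0.52).

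All 7 genes passed the filter through their brightest probe, and 13 of the 15 probes passed it. Limma, at a Benjamini-Hochberg adjusted p under 0.05 over all features, called 2 of the 7 higher with Snai1 siRNA (CEMIP and HAS3) and 2 lower (HAS2 and HYAL3), where 9.16% of 19730 features were called, 4.88% higher and 4.28% lower. With ncRNA-a7 siRNA it called 3 higher (CEMIP, CD44 and HAS3) and 1 lower (HAS2), where 9.94% of features were called, 5.78% higher and 4.16% lower. Between the siRNAs it called CEMIP and CD44 higher and HAS3 lower with ncRNA-a7 siRNA, where 8.11% were called, 4.74% higher and 3.38% lower. On the normalized scale the arrays did not overlap for 6 of the 7 with Snai1 siRNA against control, 2 higher and 4 lower, where 25.7% and 27.7% of features were so separated. With ncRNA-a7 siRNA 4 were separated upwards and 1 downwards, where the shares were 25% and 27.1%. Between the siRNAs the counts were 4 and 2, where the shares were 25.3% and 25.6%. The genes were chosen on these same contrasts, and nothing is read from those counts. Their median log2 change was -0.15 with Snai1 siRNA and 0.23 with ncRNA-a7 siRNA, beside -0.01 over all features in each comparison.

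Calls on CEMIP and HAS3 in both comparisons with control, on HAS2 with ncRNA-a7 siRNA and on CD44 between the siRNAs were kept under all 15 alternatives. The alternatives reuse the arrays on which the genes were chosen, so a call that was kept is not independent evidence. Leaving out control siRNA replicate 1 (log2 change 0.49), its replicate 2 (0.55) or replicate 1 of ncRNA-a7 siRNA (0.41) ended the CD44 call for ncRNA-a7 siRNA. The HAS2 call with Snai1 siRNA was lost without Snai1 siRNA replicate 2 (log2 change -0.44), control siRNA replicate 1 (-0.53) or control siRNA replicate 2 (-0.53). Its value over the mean of the HAS2 probes was -0.15, not called. The HYAL3 call was lost without either Snai1 siRNA array (log2 change -0.59 without replicate 1 and -0.45 without replicate 2) or either control siRNA array (-0.52 and -0.51). Between the siRNAs, the HAS3 call was lost without any 1 of the 6 arrays (log2 difference -0.57 to -0.37), and the CEMIP call without any array other than ncRNA-a7 siRNA replicate 2 (0.30 to 0.58). Averaging the probes of each gene, median scaling, dropping the filter or using offset 16 also ended both, and the last 3 of these ended the CD44 call over control. Offset 16 or dropping the filter ended the HYAL3 call, and dropping the filter ended the HAS2 call with Snai1 siRNA.

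Other genes that supply, break down or bind hyaluronan were taken from lists set out from general knowledge. These and the further lists below were chosen with earlier results of these data known. Their limma p-values are therefore descriptive. Over all features, 9.16% were called with Snai1 siRNA, 9.94% with ncRNA-a7 siRNA and 8.11% between the siRNAs. An unadjusted limma p under 0.05 was found for 4577, 4797 and 4570 of the 19730 features in these comparisons. Of the 9 genes for HAS1 and the sugar precursors, 6 were measured above the filter. GFPT1, the rate-limiting enzyme of the hexosamine pathway, rose 1.39-fold with Snai1 siRNA (by 0.48 ± 0.11 SE on the log2 scale, adjusted p = 0.0192 in limma), the only one of the 6 called in that comparison. It read 3392 and 2429 with Snai1 siRNA, against 2095 and 2404 with control siRNA. With ncRNA-a7 siRNA GFPT1 differed from control by 0.33 (limma adjusted p = 0.0818). NAGK, the kinase that salvages N-acetylglucosamine, rose 1.49-fold with ncRNA-a7 siRNA (by 0.58 ± 0.12 SE on the log2 scale, adjusted p = 0.0116 in limma), the only one called there. It read 1709 and 1909, against 1144 and 1448 with control siRNA. With Snai1 siRNA NAGK differed from control by 0.31 (limma adjusted p = 0.144). Between the siRNAs GFPT1 differed by -0.14 and NAGK by 0.27 (limma adjusted p = 0.486 and 0.213). UGDH, named after its values were seen, which makes UDP-glucuronic acid, differed from control by -0.11 with Snai1 siRNA and -0.14 with ncRNA-a7 siRNA (limma adjusted p = 0.617 and 0.503).

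Both precursor calls depended on single arrays and on the processing. The GFPT1 call was lost without either Snai1 siRNA array or either control siRNA array (log2 change 0.46 to 0.49, highest limma adjusted p = 0.117), and also with offset 16, median scaling or no filter (limma adjusted p up to 0.311). Its second probe differed by 0.57. The NAGK call was lost without either control siRNA array or ncRNA-a7 siRNA replicate 2 (log2 change 0.48 to 0.68 over the left-out arrays, highest limma adjusted p = 0.114), and also with median scaling or no filter. Between the siRNAs limma called 0 of the 6, and 2 had an unadjusted p under 0.05, beside 4570 of the 19730 features.

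Of the 6 other genes of hyaluronan breakdown, 4 were measured above the filter, namely HEXA, GUSB, HYAL4 and SPAM1. Limma called 0 of them in each of the 3 comparisons. The numbers at an unadjusted limma p under 0.05 were 2, 2 and 0, beside 4577, 4797 and 4570 of the 19730 features. GUSB, named after its values were seen, is the lysosomal beta-glucuronidase that acts on hyaluronan fragments, and read 1300 and 1029 with Snai1 siRNA and 1190 and 1148 with ncRNA-a7 siRNA, against 854 and 1125 with control siRNA. Its log2 change was 0.35 with Snai1 siRNA (limma adjusted p = 0.0873) and 0.32 with ncRNA-a7 siRNA (limma adjusted p = 0.11).

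Among 19 genes of hyaluronan binding and matrix linking, 11 were measured above the filter. With Snai1 siRNA 1 was called, ITIH2, a heavy chain that is transferred onto hyaluronan, where 9.16% of all features were called. With ncRNA-a7 siRNA 3 rose and 2 fell, where 5.78% of all features were called higher and 4.16% lower. ITIH2 read 285 and 270 with Snai1 siRNA and 295 and 344 with ncRNA-a7 siRNA, against 202 and 200 with control siRNA, so that no siRNA array overlapped control. It rose 1.59-fold with Snai1 siRNA (by 0.67 ± 0.14 SE on the log2 scale, adjusted p = 0.0105 in limma) and 1.81-fold with ncRNA-a7 siRNA (by 0.85 ± 0.14 SE on the log2 scale, adjusted p = 0.0026 in limma). The first of these calls was lost without Snai1 siRNA replicate 2 or either control siRNA array (log2 change 0.56 to 0.78 over the left-out arrays, highest limma adjusted p = 0.109), and the second was kept in each of the 14 alternatives that measured it.

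VCAN, the hyaluronan-binding proteoglycan versican, rose 1.52-fold with ncRNA-a7 siRNA (by 0.60 ± 0.12 SE on the log2 scale, adjusted p = 0.00812 in limma) and read 4947 and 4468, against 3076 and 3597 with control siRNA. HABP2, a hyaluronan-binding serine protease, rose by 0.58 on the log2 scale over control (limma adjusted p = 0.0104) and was 1.43-fold higher than with Snai1 siRNA (limma adjusted p = 0.0238), at signals of 233 and 228 with ncRNA-a7 siRNA, 191 and 160 with Snai1 siRNA and 169 and 174 with control siRNA. The 2 that fell with ncRNA-a7 siRNA, named after their values were seen, were LAYN, the hyaluronan receptor layilin (1.40-fold lower, limma adjusted p = 0.0478), and C1QBP, a mainly mitochondrial protein also described as binding hyaluronan (1.40-fold lower, limma adjusted p = 0.0365). HMMR, a hyaluronan receptor that also acts on the mitotic spindle and was named after its values were seen, read 5063 and 3300 with Snai1 siRNA and 3775 and 3461 with ncRNA-a7 siRNA, against 3865 and 5069 with control siRNA, and was not called.

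These calls too moved with single arrays and with the processing. Without either control siRNA array the VCAN call was lost (highest limma adjusted p = 0.0747), as it was with median scaling (limma adjusted p = 0.114), and so was the HABP2 call over control, also without ncRNA-a7 siRNA replicate 1 (highest limma adjusted p = 0.0875). The HABP2 call between the siRNAs was lost without Snai1 siRNA replicate 2 or either ncRNA-a7 siRNA array (highest limma adjusted p = 0.184). Offset 16, median scaling or dropping the filter ended that call as well as those on LAYN and C1QBP. A refit on the mean of each gene's probes also ended the LAYN call, although LAYN itself has only 1 probe. The LAYN call was lost without either control or either ncRNA-a7 siRNA array (highest limma adjusted p = 0.289) and the C1QBP call without control siRNA replicate 2, Snai1 siRNA replicate 2 or either ncRNA-a7 siRNA array (highest limma adjusted p = 0.259). The median log2 change of the 11 genes was 0.02 with Snai1 siRNA and -0.19 with ncRNA-a7 siRNA, beside -0.01 over all features in each comparison.

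Of 9 genes that link CD44 to actin, shed it from the surface or regulate its splicing, 7 were measured above the filter, and the splicing regulators ESRP1 and ESRP2 were not. RDX, which encodes the linker radixin, rose 1.75-fold with ncRNA-a7 siRNA (by 0.81 ± 0.11 SE on the log2 scale, adjusted p = 0.00102 in limma), a call kept under all 15 alternatives. It read 4761 and 4863 with ncRNA-a7 siRNA and 4102 and 3006 with Snai1 siRNA, against 2752 and 3186 with control siRNA. With Snai1 siRNA RDX differed from control by 0.39 ± 0.11 SE on the log2 scale (limma adjusted p = 0.052). That difference was called in 5 of the 9 alternatives that kept all 6 arrays. Over Snai1 siRNA it was 1.34-fold higher (limma adjusted p = 0.0406), a call lost without any 1 of the 6 arrays (log2 difference 0.37 to 0.48, highest limma adjusted p = 0.178) and also with offset 16, median scaling or no filter (limma adjusted p up to 0.234 over all alternatives). The other linkers, named after their values were seen, did not pass the test. EZR, ezrin, differed from control by 0.14 with Snai1 siRNA and 0.12 with ncRNA-a7 siRNA, and MSN, moesin, by 0.25 and 0.33. With Snai1 siRNA limma called 0 of the 7, and 2 had an unadjusted p under 0.05, beside 4577 of the 19730 features.

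Listed genes near CEMIP, CD44 and the HYAL2 and HYAL3 pair on their chromosomes were also measured. They lie up to 9 protein-coding genes away by gene order in GRCh38.p14, and no such list was drawn up for CEMIP2, HAS2 or HAS3. Beside CEMIP on chromosome 15, 7 of 8 listed genes were above the filter. ABHD17C, a depalmitoylase gene and the protein-coding gene next to CEMIP on one side, read 10091 and 7607 with Snai1 siRNA and 8445 and 6948 with ncRNA-a7 siRNA, against 4628 and 5299 with control siRNA. Each siRNA array was above both control arrays. ABHD17C rose 1.98-fold with Snai1 siRNA (by 0.99 ± 0.12 SE on the log2 scale, adjusted p = 0.000457 in limma) and 1.66-fold with ncRNA-a7 siRNA (by 0.73 ± 0.12 SE on the log2 scale, adjusted p = 0.00251 in limma), and both calls were kept under all 15 alternatives.

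MESD, a chaperone of the endoplasmic reticulum and the protein-coding gene next to CEMIP on the other side, read 272 and 227 with Snai1 siRNA and 167 and 210 with ncRNA-a7 siRNA, against 188 and 198 with control siRNA. It rose 1.46-fold with Snai1 siRNA (limma adjusted p = 0.0419), differed from control by -0.06 with ncRNA-a7 siRNA (limma adjusted p = 0.848) and on the ncRNA-a7 siRNA arrays was 1.52-fold below the Snai1 siRNA arrays (limma adjusted p = 0.03). The first call was lost without either Snai1 siRNA array or either control siRNA array (highest limma adjusted p = 0.183), and the direct one without any array other than ncRNA-a7 siRNA replicate 2 (log2 difference -0.85 to -0.36 over the left-out arrays, highest limma adjusted p = 0.172). Both MESD calls were also lost with offset 16, median scaling or no filter. The first was lost too in the refit on the mean of each gene's probes, although MESD itself has only 1 probe. TLNRD1, the next gene beyond MESD, fell with ncRNA-a7 siRNA, 1.56-fold below control (limma adjusted p = 0.00781) and 1.79-fold below Snai1 siRNA (limma adjusted p = 0.00272). FAH, the last enzyme of tyrosine breakdown and 4 protein-coding genes away, rose 1.47-fold over control with ncRNA-a7 siRNA (limma adjusted p = 0.0113) and was 1.41-fold higher than with Snai1 siRNA (limma adjusted p = 0.0247). The TLNRD1 call against control was lost when replicate 2 of control siRNA or of ncRNA-a7 siRNA was left out (highest limma adjusted p = 0.0931), and the FAH call against control without either control siRNA array or replicate 1 of ncRNA-a7 siRNA (highest limma adjusted p = 0.091). The direct FAH call was lost without either Snai1 siRNA array, replicate 1 of control siRNA or replicate 1 of ncRNA-a7 siRNA (highest limma adjusted p = 0.132). Median scaling or dropping the filter ended both FAH calls (limma adjusted p up to 0.127 against control), and offset 16 the direct one.

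Beside CD44 on chromosome 11, 4 of 6 listed genes were above the filter. APIP, an enzyme of methionine salvage that lies beyond PDHX, read 2902 and 2073 with Snai1 siRNA and 2646 and 2741 with ncRNA-a7 siRNA, against 1707 and 1820 with control siRNA. It rose 1.53-fold with Snai1 siRNA (limma adjusted p = 0.00729) and 1.65-fold with ncRNA-a7 siRNA (limma adjusted p = 0.00287), and its second probe differed by 0.61 and 0.66 on the log2 scale. The first call was lost when replicate 2 of Snai1 siRNA or of control siRNA was left out (highest limma adjusted p = 0.0796) or with median scaling (limma adjusted p = 0.101). TRIM44, 4 protein-coding genes away, read 1730 and 1230 with Snai1 siRNA and 2263 and 2410 with ncRNA-a7 siRNA, against 2001 and 2184 with control siRNA, the same order of groups as CD44. It was 1.34-fold lower with Snai1 siRNA than with control (limma adjusted p = 0.0412), a call lost without either Snai1 siRNA or either control siRNA array (highest limma adjusted p = 0.258) and with offset 16, median scaling, cyclic loess or no filter, and on the ncRNA-a7 siRNA arrays 1.58-fold above the Snai1 siRNA arrays (limma adjusted p = 0.00625), a call lost without Snai1 siRNA replicate 2 (log2 difference 0.59 to 0.73 over the left-out arrays, highest limma adjusted p = 0.065).

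HYAL2 and HYAL3 lie close together on chromosome 3, and 8 of 14 listed neighbours were above the filter. Limma called 0 of the 8 in each of the 3 comparisons. The numbers at an unadjusted limma p under 0.05 were 0, 0 and 2, beside 4577, 4797 and 4570 of the 19730 features. The 8 are named here after their values were seen. With Snai1 siRNA CYB561D2, TMEM115, IFRD2, RASSF1 and NPRL2 differed from control by -0.20, -0.19, -0.16, -0.14 and -0.11. SEMA3B, GNAT1 and GNAI2 differed by 0.04, 0.11 and 0.25. HYAL3 differed by -0.52 in the same comparison.

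**Figure D4:**
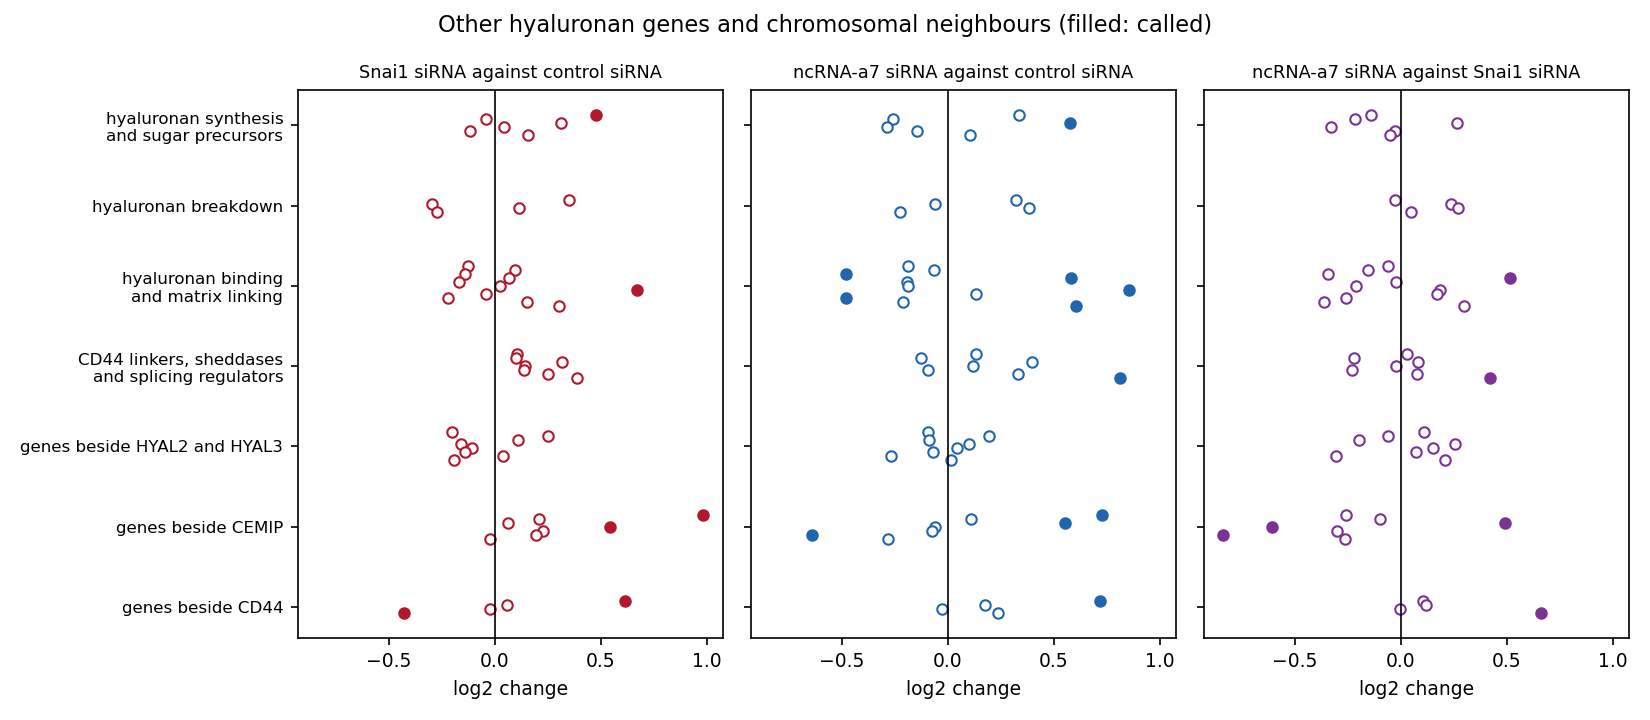
Log2 change on the horizontal axis of each gene measured above the filter in the lists of other hyaluronan genes and of genes near CEMIP, CD44, HYAL2 and HYAL3, with filled points for genes called by limma and open points for the rest, in 3 comparisons of 2 arrays against 2. The 8 neighbours of HYAL2 and HYAL3 are open in every panel, while ABHD17C beside CEMIP is filled with both siRNAs against control (0.99 and 0.73).

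The 5 named genes whose log2 values followed those of CEMIP most closely over the 6 arrays, by the root mean square difference after each gene's own mean was taken off, were IFIT1, IGSF3, SLC51B, MORC4 and TGM2. The difference was 0.30 for IFIT1, an interferon-induced gene, 0.33 for IGSF3, 0.36 for SLC51B, a subunit of a steroid and bile acid transporter, 0.36 for MORC4 and 0.38 for TGM2, a transglutaminase. Their log2 changes ran from 1.02 to 1.48 with Snai1 siRNA and from 1.54 to 1.80 with ncRNA-a7 siRNA, each lower than that of CEMIP. The list is a description of 6 arrays in 3 groups.

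Markers of other cell types were summed on the brightest probe of each gene. Counts of called markers stand beside 9.16% of all features called with Snai1 siRNA and 9.94% with ncRNA-a7 siRNA. At an unadjusted limma p under 0.05 there were 4577 and 4797 of the 19730 features. The 4 leukocyte markers on the array summed to 810 and 1000 in signal with Snai1 siRNA and to 917 and 949 with ncRNA-a7 siRNA, against 657 and 667 with control siRNA. Of the 2 above the filter, limma called CD14 higher with both siRNAs and ITGAM higher with ncRNA-a7 siRNA, while PTPRC, which defines leukocytes, read 162 and 155 with Snai1 siRNA and 152 and 145 with ncRNA-a7 siRNA, against 133 and 138 with control siRNA. The 5 fibroblast markers summed to 990 to 1144 with Snai1 siRNA and 970 to 981 with ncRNA-a7 siRNA, against 871 to 977 with control siRNA, with 2 of 3 called higher with Snai1 siRNA and 0 of 3 with ncRNA-a7 siRNA, which had 0 at an unadjusted p under 0.05 as well. Those 2, COL1A1 and LUM, were not called with median scaling, without the filter or with some arrays left out (limma adjusted p up to 0.177). The 5 endothelial markers summed to 887 to 1036 with Snai1 siRNA and 813 to 908 with ncRNA-a7 siRNA, against 790 to 804 with control siRNA, with 1 of 3, ESAM, called higher with both, a call lost for ncRNA-a7 siRNA without control siRNA replicate 1 or its own replicate 1 (highest limma adjusted p = 0.074). The 9 epithelial markers summed to 157791 to 186720 with Snai1 siRNA and 177535 to 198669 with ncRNA-a7 siRNA, against 131975 to 150178 with control siRNA, with 2 of 8 called higher and 1 lower with Snai1 siRNA and 4 higher and 2 lower with ncRNA-a7 siRNA. EPCAM, an epithelial adhesion molecule, fell by 1.12 on the log2 scale with Snai1 siRNA and by 1.64 with ncRNA-a7 siRNA (limma adjusted p = 0.0012 and 0.000103). Its dimmer probe differed by -0.21 and -0.30. AKR1B10 (0.54 and 0.71) and ALDH3A1 (0.83 and 0.99) were called higher with both siRNAs. With ncRNA-a7 siRNA and not with Snai1 siRNA, KRT8 and NQO1 were called higher and KRT18 lower. Those 3 calls were lost in several alternatives, among them offset 16, median scaling and no filter. KRT8 differed from control almost equally with both siRNAs, by 0.47 with Snai1 siRNA and 0.49 with ncRNA-a7 siRNA (limma adjusted p = 0.0524 and 0.0402). Between the siRNAs limma called 0 of the 8 epithelial markers. The AKR1B10 call with Snai1 siRNA was lost with median scaling, no filter or some arrays left out. Background was not measured on these arrays, so no marker can be called absent, and the part of these differences in the signals of CEMIP, HAS3 and CD44 was not tested.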

How the data were processed

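The deposited scanner table gives, for each of 48701 probes on each array, a linear intensity that was not normalized, with no detection p-values. The authors' deposited series matrix holds the same intensity values, each array multiplied by a constant from 0.783 to 1 so that every array has a mean of 715. The sources used here do not give how either table was made. Groups and replicate numbers came from the sample labels.

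Probes were named through the platform annotation, in which 28044 had 1 gene symbol, 13 several and 20644 none. The gene IDs of 28005 were found in RefSeq (GRCh38.p14), used for names, gene order and promoter sequences, and 0 symbols changed. Signals were corrected with limma 3.58.1 (R 4.3.3) normexp at an offset of 50, quantile normalized and put on the log2 scale, so fold changes of dim genes are understated. Probes above the median mean were kept (24350), with the brightest probe per gene, giving 19730 features. All 6 arrays entered 1 limma fit (3 residual and 8.9 prior degrees of freedom), with calls at an adjusted p (Benjamini-Hochberg) below 0.05. The procedure was tested on simulated data.

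Genes and lists were chosen with earlier results of these data known. Besides the 7 genes, up to 3 called genes of each list and comparison with the smallest p were named, and the 5 genes nearest to CEMIP. With 2 arrays against 2, an exact permutation test of 1 gene cannot go below p = 0.333, so none was run. Alternatives changed the background step (none, or offset 16), the scaling (by medians, or cyclic loess), the source (the series matrix), the filter (none, or probes brighter than 75% of all) and the gene summary (its probes' mean), added a replicate block, or left out each array.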

Additional observations from a re-analysis of the deposited data

How the results depend on the processing

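CEMIP kept its direction against control in all 15 alternatives, with log2 changes of 1.66 to 1.84 with Snai1 siRNA and 2.07 to 2.61 with ncRNA-a7 siRNA. With each array left out the ranges were 1.70 to 1.82, 2.07 to 2.61 and, between the siRNAs, 0.30 to 0.84. Of 270 values of the other genes, 19 moved by more than the spread between replicates and 0 called values reversed. Of these 19, 8 came from averaging a gene's probes, which brings in dim ones. HYAL2, never called, changed sign in 3, 2 and 1 of the alternatives, and HYAL3 with ncRNA-a7 siRNA in 1.

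The count of called features (1807, 1962 and 1601 for Snai1 siRNA against control, ncRNA-a7 siRNA against control and the siRNAs against each other) was 979, 1031 and 569 with an offset of 16, 1066, 922 and 698 with median scaling and 820, 822 and 498 without a filter, where more features are tested. Between the siRNAs it was 2487 without background correction or from the series matrix, which quantile normalization makes the same, and 2498 over the brightest probes. Leaving out arrays gave 467 to 1942, 563 to 1768 and 341 to 1153. Median scaling made 33.8% of calls higher with Snai1 siRNA, against 53.3%, and 70.6% between the siRNAs, against 58.4%. The causes were not tested. Of 315 list counts, 230 stayed within 1.5 times, 19 were larger and 66 smaller.

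Same-numbered arrays did not deviate together after quantile normalization (correlations of -0.07 to 0.01 between groups). The labels do not say whether they were handled together, and these correlations cannot settle it, because normalization removes array-wide shifts. With the replicate block 1664, 1730 and 1433 features were called. The block ended the calls on LAYN (ncRNA-a7 siRNA against control), RDX (between the siRNAs) and TRIM44 (Snai1 siRNA against control). Without background measurements, signals near the array median limit what the dim probes of HAS2, HAS3 and HYAL2 can show.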
